A study of Caenorhabditis elegans with 4 samples.

Results

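A set of 82 Caenorhabditis elegans genes known only by a sequence name stood low in 1 of 4 RNA preparations of second-stage (L2) larvae and near or above the reference in the other 3. The samples are 4 preparations of wild-type L2 RNA, preps 1 to 4, each on 1 two-colour array against a mixed wild-type reference RNA. All 4 form 1 group, and the sources used here state neither strain background, culture and age in hours nor what the reference mixes. Each value is a log2 ratio minus its array's median over all probes, so 0 is the array's midpoint and 1 is a doubling. Positive values are read as likely higher in L2, from the order of the channels in the labels, since the labels name no dyes.

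The 82 genes were chosen by their values. A gene had to carry only a sequence name in the platform annotation (a period, no hyphen) and to be measured on all 4 arrays. Its prep 3 value had to be below 0.5 and at least 1.2 under the lowest of preps 1, 2 and 4, and those 3 had to be above -1. Of 5618 sequence-named genes on all 4 arrays, 82 met this, or 1.46%. The 4 values of these genes are therefore a description of what was picked, with no test, and 1 array stands behind each prep, so the prep 3 values have no replicate of their own.

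A worm gene gets a sequence name from the genomic clone it was found on and its number there, as in ZK180.5, and gets a locus name of letters, a hyphen and a number, as in dpy-5, once a mutant, a protein family or a study has given it one. All 82 matched a newer gene table (RefSeq, assembly WBcel235) by gene ID, and all 82 carried the sequence name there. The same held for all 5580 sequence-named genes that matched, so nothing about the 82 is read from this. That table annotates 80 as protein-coding, 1 as a pseudogene (T18H9.11) and 1 as a non-coding RNA (W05H9.3). The tables used here give no product or function, so none is given for these genes. In each larval stage the epidermis builds a collagen cuticle in a transcriptional wave, so RNA of a larval stage depends on the hour within it. The labels give no hour.

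Prep 3 stood apart from the other arrays over all probes as well. Its deposited log2 ratios correlated at r = 0.476 with prep 1, 0.564 with prep 2 and 0.490 with prep 4, against 0.670 to 0.728 among preps 1, 2 and 4 (at least 20892 probes a pair, all sharing the reference). Probes with a value numbered 21386 in prep 3 and 21209 to 21305 in the others. As a check of the stage, the medians of the 28 measured major sperm protein genes were -2.44 in prep 3 and -3.60, -4.24 and -2.77 in preps 1, 2 and 4. Those of the 3 yolk protein genes were -5.27 in prep 3 and -5.46, -6.44 and -4.40 in the other preps. Both products are made at later stages than L2, and both lists lay far under the reference on all 4 arrays. In whole animals, fewer cells of a type and less RNA per cell cannot be told apart.

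Across the 82 genes the median log2 ratio was -0.67 in prep 3, against 1.13, 1.21 and 1.37 in preps 1, 2 and 4. Values ran from -3.13 to 0.48 in prep 3, from -0.49 to 3.03 in prep 1, from -0.87 to 3.13 in prep 2 and from -0.73 to 3.00 in prep 4. The medians of all 5618 sequence-named genes lay at 0.04 in prep 3 and at -0.04, -0.05 and -0.02 in preps 1, 2 and 4. So the usual member was above the reference in 3 preparations and below it in prep 3. In all, 70 of the 82 were above 0 in each of preps 1, 2 and 4, and 61 of these were below 0 in prep 3. Among all sequence-named genes, 25.9% were above 0 in each of preps 1, 2 and 4.

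**Figure D1:**
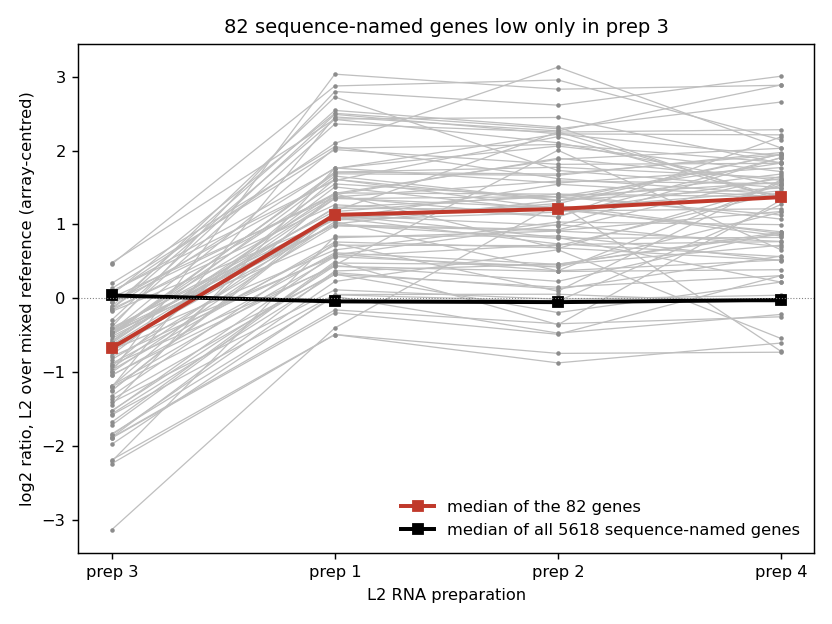
Log2 ratio of L2 over the mixed reference (array-centred, y axis) of each of the 82 genes (grey points joined by lines) in preps 3, 1, 2 and 4, with their median (red) and the median of all 5618 sequence-named genes (black). The red line lies at -0.67 in prep 3 and at 1.13 to 1.37 in the other 3, while the black line stays within 0.05 of 0; the genes were chosen for this shape.

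The members fell into kinds by their level outside prep 3. In 41 genes all of preps 1, 2 and 4 were above 1, in 29 the lowest of them lay between 0 and 1, and in 12 it was at or below 0. Prep 3 was above 0 in 9 genes, between -1 and 0 in 45 and below -1 in 28. Preps 1, 2 and 4 were mostly alike: they lay within 0.5 of each other in 46 of the 82 genes and more than 1 apart in 12. None of the 3 led throughout, the highest value being that of prep 1 in 28 genes, of prep 2 in 22 and of prep 4 in 32. The lowest of the 3 came from prep 2 in 40 genes, so prep 2 most often set the gap.

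The widest gaps belonged to a pair of adjacent genes on chromosome IV. ZK180.5 had a log2 ratio of -0.99 in prep 3, against 3.03, 2.83 and 2.88 in preps 1, 2 and 4. ZK180.6 had -1.20 in prep 3, against 2.45, 2.26 and 2.89. For ZK180.5 this was a ratio of 0.502 to the reference in prep 3 and of at least 7.11 in each other prep, a 14.1-fold gap, and for ZK180.6 the gap was 11-fold. No protein-coding gene lies between them in the newer table, whereas their probes stand 1352 rows apart in the probe table. On the other side of ZK180.5 lies sar-1, a small GTPase of vesicle budding from the endoplasmic reticulum, which met the same thresholds at -1.08 in prep 3 and 0.24, 0.36 and 0.15 in preps 1, 2 and 4.

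Several more genes were high in 3 preps and near or under the reference in prep 3. F10D11.6 (chromosome I) was at -1.44 in prep 3, against 1.76, 2.06 and 1.72 in preps 1, 2 and 4. F30H5.3 (chromosome III) was at -0.39 in prep 3 and at 2.80, 2.61 and 3.00 in the others, a 7.99-fold gap. R09H10.5 (chromosome IV) had -0.34 in prep 3, against 2.36, 2.25 and 2.28. The other 3 preps of R09H10.5 differed by 0.11 at most. For F40E10.5 (chromosome X) the values were -0.29 in prep 3 and 2.49, 2.22 and 2.21 in preps 1, 2 and 4. R02F11.1 (chromosome V) stood at -0.44 in prep 3, against 2.03, 2.08 and 1.84. F41F3.3 (chromosome V), the shortest of the 30 genes with the widest gaps with a span of 471 bases, was at 0.05 in prep 3 and at 2.5, 2.29 and 2.66 in the others. All of these 6 were at least 3-fold above the reference in each of preps 1, 2 and 4, the least being 3.28-fold for F10D11.6.

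A few genes had a prep 3 value of about -0.5 and values of about 1.7 elsewhere. T19B10.2 had -0.49 in prep 3, against 1.71, 1.68 and 1.94 in preps 1, 2 and 4. F54E2.1 had -0.47 in prep 3, against 1.69, 1.66 and 1.97. T23E7.2, whose span of 9802 bases is the longest of the 30, had -0.50 in prep 3, against 1.71, 1.77 and 1.63. These 3 had nearly the same profile, a likeness that the rule and the ranking by gap favour. T19B10.2 and F54E2.1 lie on chromosome V and T23E7.2 on X. A little lower in the 3 other preps was F49E10.2, with -0.58 in prep 3 and 1.65, 1.33 and 1.49 in preps 1, 2 and 4. The values of F56D2.3 were -0.12 in prep 3 and 1.76, 1.56 and 1.77 in the others. Least spread of all among preps 1, 2 and 4 was seen for C12D12.1, at -0.61 in prep 3 and 1.43, 1.41 and 1.37 elsewhere. Its prep 3 value lay 1.98 under a range of 0.05.

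Others of this kind reached lower in prep 3. T17H7.7 was at -1.25 in prep 3, against 1.17, 1.41 and 1.07 in preps 1, 2 and 4. The pseudogene T18H9.11 was at -0.91 in prep 3 and at 1.61, 1.21 and 1.45 in the others. R74.2 stood at -0.72, against 1.35, 1.38 and 1.57. In each of them the 3 other preps lay within 0.4 of each other while prep 3 was under the reference. B0280.7 gave -0.76 in prep 3 and 1.51, 1.18 and 1.21 in preps 1, 2 and 4. F15B9.8 gave -0.63 in prep 3, against 1.23, 1.38 and 1.83. For R148.3 the values were -0.83 in prep 3 and 0.98, 0.92 and 1.18 in preps 1, 2 and 4. E01G6.1 was the exception in level, at 0.07 in prep 3 and 2.1, 3.13 and 2.03 in the others, with prep 2 well above preps 1 and 4.

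**Figure D2:**
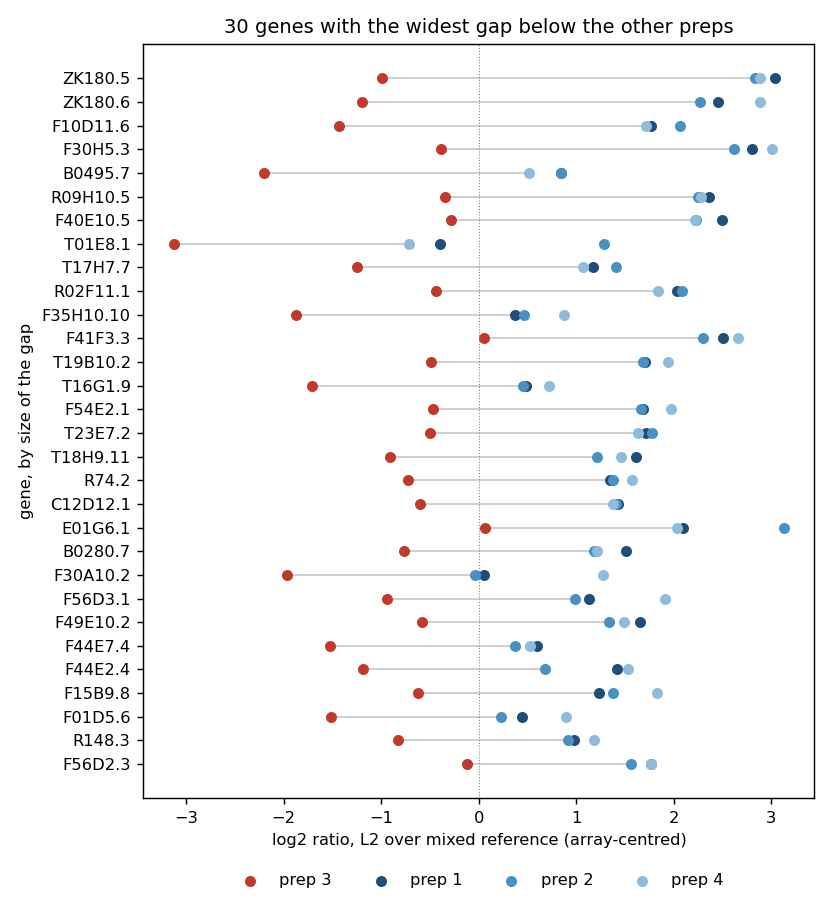
Log2 ratios (array-centred, x axis) in preps 3 (red), 1, 2 and 4 (blues) of the 30 genes with the widest gap between prep 3 and the lowest other prep, from the widest at the top; the grey line is that gap. The gaps run from 3.82 (ZK180.5) to 1.68 (F56D2.3), and T01E8.1, F30A10.2 and E01G6.1 have blue points that lie far apart.

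In a further kind of member preps 1, 2 and 4 lay between 0 and 1, and prep 3 was below -1.5. B0495.7 (chromosome II) was at -2.2 in prep 3, against 0.84, 0.85 and 0.51 in preps 1, 2 and 4. F35H10.10 had -1.88 in prep 3, against 0.37, 0.46 and 0.87. T16G1.9 had -1.71, against 0.48, 0.45 and 0.72. In these genes L2 RNA of prep 3 gave 0.218, 0.272 and 0.305 of the reference signal. F44E7.4 stood at -1.53 in prep 3 and at 0.60, 0.37 and 0.52 in the others. F01D5.6 stood at -1.52, against 0.44, 0.23 and 0.89. Over the 4 preps the mean of B0495.7, T16G1.9, F44E7.4 and F01D5.6 lay within 0.02 of 0, so an average over preps hides the pattern.

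Where preps 1, 2 and 4 differed, the low prep 3 value was the more extreme of unlike values. T01E8.1 (chromosome II) had the lowest value of all 82 in prep 3, -3.13, against -0.40, 1.29 and -0.72 in preps 1, 2 and 4. F30A10.2 was at -1.97 in prep 3 and at 0.05, -0.04 and 1.27 in the others. F56D3.1 was at -0.94, against 1.13, 0.98 and 1.90. In T01E8.1 prep 2 alone was above 0, and in F30A10.2 and F56D3.1 prep 4 was the high one. F44E2.4, measured by 2 probes, had a mean of -1.19 in prep 3 and 1.41, 0.68 and 1.53 in preps 1, 2 and 4. Its probes gave -1.44 and -0.93 in prep 3, and both met the thresholds.

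Only 4 of the 82 genes had 2 probes. For F35A5.1, 1 probe met the thresholds (0.39 in prep 3, 1.73 to 2.54 elsewhere) and the other missed at 0.58 in prep 3. For T16G12.1 likewise 1 probe met them (-0.14 in prep 3, 1.21 to 1.85 elsewhere) and 1 did not (0.34 in prep 3, 1.46 to 2.53 elsewhere). Neither probe of F34D10.4 met them alone, at -0.50 and -0.86 in prep 3 and 0.34 to 1.45 elsewhere. In all 4 genes prep 3 was the lowest of the 4 preps on both probes.

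The threshold cut through a continuous range. Just inside lay T19B10.5 (gap 1.24), R07E3.1 (1.22) and T09B4.8 (1.2), the last at 0.21 in prep 3 and 2.05, 1.62 and 1.41 in preps 1, 2 and 4. Just outside lay Y32F6B.1 (1.19), F13B6.1 (1.19) and F32B5.7 (1.18), with Y32F6B.1 at -0.60 in prep 3 and 0.95, 0.75 and 0.60 in the others. The gap was at least 2 in 18 members and under 1.5 in 35.

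The remaining 52 members, beyond the 30 with the widest gaps, had gaps from 1.2 to 1.68. Those with levels unlike the rest included 3 genes under the reference in every prep. W05H9.3, the non-coding RNA gene, was at -2.23 in prep 3 and at -0.49, -0.74 and -0.73 in preps 1, 2 and 4. C08F11.13 was at -2.18 in prep 3, against -0.49, -0.87 and -0.60. F56C9.10 was at -1.88, against -0.16, -0.34 and -0.25. In these genes prep 3 was the lowest of 4 low values. D2096.6 was the opposite, at 0.46 in prep 3 and 2.87, 2.95 and 2.14 in the others, so that L2 was above the reference throughout. It is 1 of 9 members of which this holds. These 4 genes were picked out here after their values had been seen.

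The 4 preps were also set against the reference together. In a limma fit over all features, 9 of 82 members had a Benjamini-Hochberg adjusted p under 0.05, all higher in L2, against 14.7% of the 19941 features tested (4.85% higher and 9.87% lower). Since the rule used the same values, nothing is read from this count or from those that follow. The 9 were D2096.6 (mean 2.11 ± 1.15, SD, n = 4), F41F3.3, E01G6.1, F35A5.1, Y43F8B.3, F21C10.7, T09B4.8, T16G12.1 and F52F10.2. All of these were above 0 in prep 3, where only 9 members were. Without prep 3, whose low value the rule had fixed, 59 members passed, 57 higher and 2 lower, against 16.6% of 19263 features (7.07% higher and 9.55% lower), and all 9 were among them. Without prep 1, 2 or 4 the limma count was 0, against 1157 of 19321, 1204 of 19395 and 1699 of 19421 features. In these fits 23, 23 and 21 members had an unadjusted limma p under 0.05, a share that was not taken over all features.

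Prep 3 was the array that most often lay alone on the low side, though not on the high side. With the same thresholds and another prep in the place of prep 3, 32 sequence-named genes were low only in prep 1, 54 only in prep 2 and 21 only in prep 4, against 82 for prep 3. With the signs turned, 28 were high only in prep 3, against 34, 53 and 7 for preps 1, 2 and 4. The imbalance was larger in locus-named genes. Of 8890 on all 4 arrays, 414 were low only in prep 3, or 4.66%, against 33, 42 and 20 for preps 1, 2 and 4. High only in prep 3 were 41 locus-named genes, far fewer than were low only there.

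**Figure D3:**
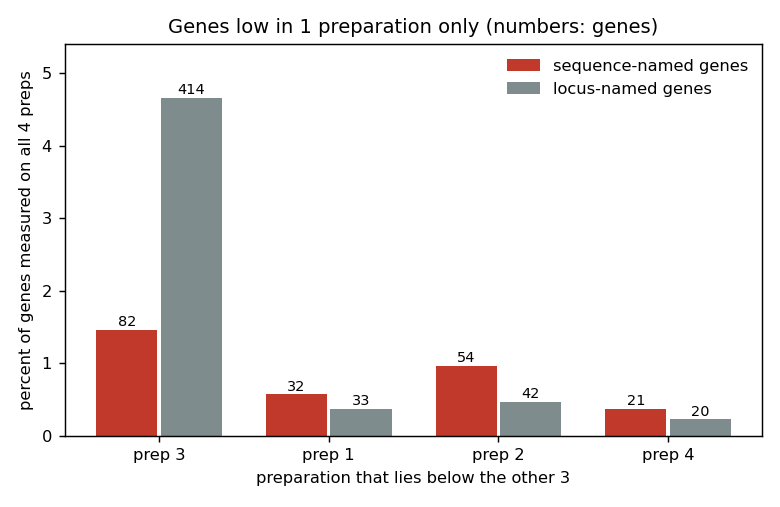
Percent of genes measured on all 4 preps (y axis) that lay low in 1 preparation only by the same thresholds, for sequence-named (red) and locus-named genes (grey), with the number of genes above each bar. The bars of prep 3 reach 1.46% and 4.66%, and those of the other preps lie between 0.225% and 0.961%.

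The shares were also set side by side at matched levels. All of preps 1, 2 and 4 were above 1 in 110 sequence-named genes (1.96%), and 41 of the 110, or 37.3%, were members. Among 308 locus-named genes at that level, 114 met the thresholds, or 37%. At this level the shares were alike for both kinds of name, and at lower levels they were not. Where the lowest of preps 1, 2 and 4 lay between 0 and 1 the shares were 2.16% of sequence-named and 7.50% of locus-named genes, and where it lay between -1 and 0 they were 0.384% and 2.25%. With prep 1 or prep 2 as the low one, 0 of 36 and 0 of 39 sequence-named genes with the other 3 preps above 1 met the thresholds, and with prep 4, 4 of 59.

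Gene span moved with the pattern. The 82 genes had a median span of 3286 bases from start to end, introns included, against 1864 bases for the 5580 sequence-named genes matched to the newer table. Of the longest quintile of sequence-named genes (3493 bases or more), 3.49% were members, 39 genes in all, and of the shortest quintile (up to 979 bases) 0.537%, or 6 genes. Locus-named genes showed the same order, with 8.53% of the longest and 1.81% of the shortest quintile low only in prep 3. In prep 3 the median of sequence-named genes was -0.04 in the longest quintile and 0.17 in the shortest. Preps 1, 2 and 4 ran the other way, at 0.06, 0.08 and 0.07 in the longest quintile and -0.10, -0.03 and -0.07 in the shortest. Across the 5580 genes, prep 3 minus the median of the other preps correlated with log2 span at r = -0.222 (rho = -0.246). Prep 3 thus tended to lie lower against the others in longer genes, all of which share the same 4 arrays.

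Within the 82 genes, whose gaps the rule cut off at 1.2, gap and log2 span gave r = 0.0315 (rho = 0.0258), from which nothing is read. ZK180.5, with the widest gap, spans 2123 bases, and the longest member, Y43F8B.3 (16915 bases), had a gap of 1.66. Among sequence-named genes with preps 1, 2 and 4 above 1, 25 of the 54 longer genes (46.3%) and 16 of the 54 shorter ones (29.6%) were members. The share thus differed with span among these genes too. Level is part of the rule, so nothing is read from its link with membership. The part of span in the pattern was not tested.

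**Figure D4:**
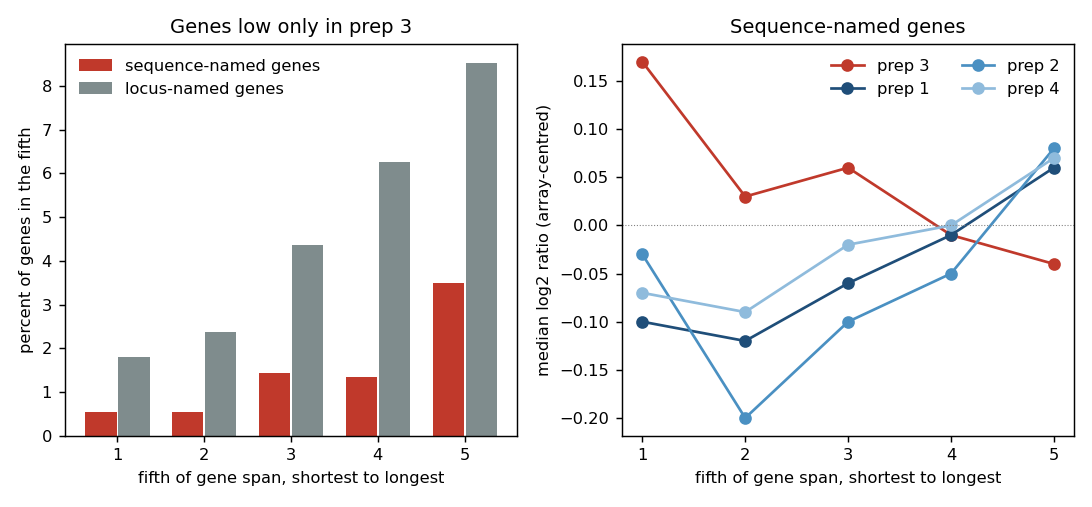
Left, percent of genes low only in prep 3 (y axis) in each quintile of gene span, for sequence-named (red) and locus-named genes (grey); right, median log2 ratio of all sequence-named genes in each quintile, by prep. The share reaches 3.49% and 8.53% in the longest quintile, and prep 3 (red line) starts at 0.17 and ends at -0.04 while the other preps end at 0.06 to 0.08.

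Position on the array was followed through the order of the probe table, whose 32 runs of 676 probes had unlike medians. In prep 3 these run medians went from -0.53 to 0.39, in prep 1 from -0.29 to 0.19, in prep 2 from -0.57 to 0.30 and in prep 4 from -0.22 to 0.16. The 86 probes of the members lay in 31 of the 32 runs, with at most 7 in 1 run, and 45.3% lay in runs whose prep 3 median was below 0, which hold 37.5% of all probes. The 167 probes in the rows next to them, measured on all 4 arrays, had a median of -0.18 in prep 3 and 0.06, 0.03 and 0.08 in preps 1, 2 and 4, and 13 of them (7.78%) met the thresholds, against 3.10% of all probes. Member probes are left out of the 167 but counted in the 3.10%. With each run centred on its own median the 82 genes kept their levels, at -0.74 in prep 3 and 1.15, 1.26 and 1.33 in preps 1, 2 and 4, and 69 of the 82 still met the thresholds. Runs of rows are not stated to be areas of the slide. The array titles carry 2 months, and prep 3 shares its month with prep 4. They also carry a code before the date, whose letters prep 3 shares with prep 2 and whose meaning is not stated. The rule itself keeps preps 2 and 4 above prep 3 in these genes, and the part of month or code was not tested.

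The genes were spread over the genome. Chromosome X held 19 of the 82 (23.2%), against 17.2% of the matched sequence-named genes, and chromosome II held 7 (8.54%), against 18.4%. Chromosomes I, III, IV and V held 13, 11, 14 and 18. Besides the ZK180 pair, 1 other pair of members were next to each other in gene order, R12E2.14 and R12E2.15 on chromosome I. R12E2.14 was at -1.57 in prep 3, against 0.05, 0.06 and -0.06, and R12E2.15 at -1.56, against 0.33, -0.19 and 0.22. A further member, R12E2.7, lies 1 gene away from R12E2.14 and was at -1.24 in prep 3, against 1.13, 0.82 and 0.22 in preps 1, 2 and 4. The gene between, R12E2.6, was at 0.01 in prep 3, against -0.49, -0.25 and -0.29, and so lacked the pattern. The probes of the 3 members lie in 3 different runs. Whether their transcripts share sequence was not tested. In contrast, the members T19B10.2 and T19B10.5, with 2 protein-coding genes between them, have probes 1 row apart in the same run. The probes of the members R07E3.1 and R07E3.6, with 4 such genes between them, stand 1493 rows apart. Of 118 measured protein-coding neighbours that are no members, 8 (6.78%) met the thresholds, against 3.42% of all genes. A sequence-named neighbour that meets them is a member and so not among the 118, whereas the 3.42% counts members. These shares thus come from unlike sets. The median of the 118 was -0.12 in prep 3 and 0.03, -0.10 and 0.04 in the others.

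Locus-named genes with the same shape show what kinds of product shared it. The widest gaps among the 414 were those of bcf-1, sca-1, the collagen genes col-17, col-73, col-41, col-90, dpy-4, dpy-5 and sqt-2, irg-7, hrg-11.3, hrg-11.2, lep-5, mthf-1 and abu-14. The calcium pump gene sca-1 was at -2.80 in prep 3, against 0.87, 0.80 and 0.85 in preps 1, 2 and 4. The cuticle collagen gene dpy-4 was at -0.75 in prep 3, against 2.90, 2.70 and 2.98. The folate enzyme gene mthf-1 was at -2.1, against 0.91, 0.97 and 0.97. Both kinds of profile found among the 82 genes, high elsewhere or near the reference elsewhere, are thus present among named genes. The genes whose 4 values followed the median of the members most closely were mig-6, an extracellular matrix protein, nra-2 and the nuclear pore gene npp-12, followed by sec-24.2 of vesicle coats, pgp-2, par-1, ncs-2, klc-2, vgln-1 and the dynein heavy chain gene dhc-1 (r from 0.999067 to 0.999957 over 4 preps), out of 1453 with a range of at least 1.5. With 4 points such values describe shape only.

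Genes of the cuticle and of body wall muscle were among those with this pattern. Among 13 body-shape genes of collagens and collagen enzymes outside the furrow group, 8 were low only in prep 3, with a list median of -0.51 in prep 3 and 1.73, 1.31 and 2.26 in preps 1, 2 and 4. Of 12 abu genes, which encode repeat proteins linked to the pharyngeal cuticle, 7 were, of 32 body wall muscle genes 11, of 52 molting and apical matrix genes 11 and of 131 numbered collagens 15. The body wall myosin gene unc-54 was at -0.69 in prep 3, against 2.2, 2.04 and 2.22. Further counts were 8 of 45 hedgehog-related, 3 of 20 patched-related, 1 of 5 furrow collagen and 2 of 17 pharynx genes, set against 4.66% of all locus-named genes. Near or under that share were neurons (3 of 44), dauer and starvation genes (1 of 24), astacin proteases (1 of 34) and intestine (1 of 35). The medians of these lists were nevertheless lowest in prep 3, for intestine at -0.1, against 0.3, 0.22 and 0.42 in preps 1, 2 and 4. The pharynx list differed, with a median of 0.55 in prep 3 and 0.19, 1.0 and 0.25 in preps 1, 2 and 4. As a list it was thus not lowest in prep 3.

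No gene had the pattern in 5 larger lists, nor among the 3 yolk genes. These were the 58 cytosolic ribosomal protein, 43 DNA replication and cell cycle and 52 histone genes, besides the 28 sperm protein genes and the 24 oocyte and maternal genes. The rule asks for preps 1, 2 and 4 above -1. The sperm, oocyte and yolk medians lay under -1 in each of them, and the replication median was -1.1 in prep 2. Many of these genes could thus not qualify whatever their prep 3 value, so nothing is read from their counts of 0. The ribosomal protein median was 1.06 in prep 3 and 0.90, 0.28 and 0.48 in preps 1, 2 and 4, so that prep 3 was the highest. The oocyte and maternal median was -2.84 in prep 3, against -3.58, -3.89 and -2.47. Germ line levels in prep 3 thus lay within the range of the other preps for oocyte genes and above it for sperm proteins, by 0.33. Their part in the pattern of the 82 genes was not tested. A few genes belong to 2 lists, among them ptr-23 and qua-1.

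**Figure D5:**
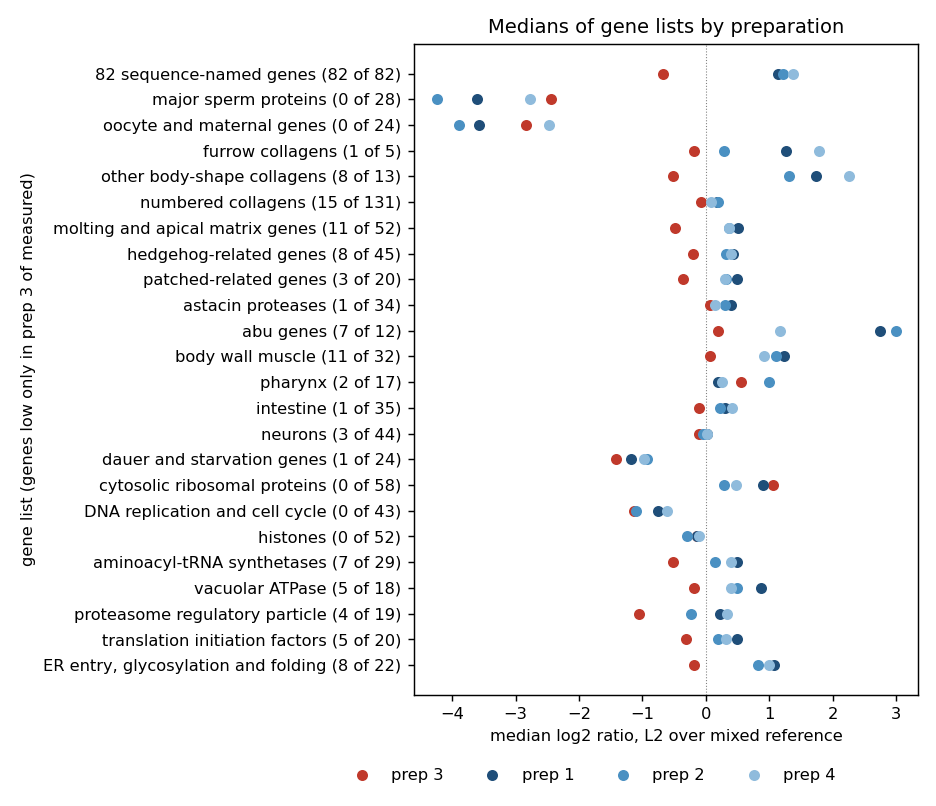
Median log2 ratio (array-centred, x axis) in preps 3 (red), 1, 2 and 4 (blues) of the 82 genes and of each gene list with at least 5 measured genes; in brackets, how many genes were low only in prep 3 of those measured. The red point is the lowest in most lists. Among these are body-shape collagens (-0.51), muscle (0.06), intestine (-0.1), neurons (-0.11) and DNA replication (-1.14). It is the highest only for ribosomal proteins (1.06) and sperm proteins (-2.44), and it is neither for the oocyte, pharynx and histone lists. The bottom 5 lists were chosen after values were seen.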

How the data were processed

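The authors deposited 1 log2 ratio per probe and array. The base follows from the values: read as log2, 100% of ratios below 0.9 lay within 0.05 of whole thousandths. The sources used here state no background correction, normalization, spot filter or dye. Intensities were not used, and precision is limited by having 4 arrays. Per the labels, channel 1 holds the reference and channel 2 L2 RNA.

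Gene names came from the platform annotation (16450 of 21632 probes with 1 name, 247 with several, 4935 unnamed). Arrays were centred on their medians and probes averaged per gene. limma 3.58.1 (R 4.3.3; two-sided, mean against 0, Benjamini-Hochberg over all features on at least 3 arrays) takes the reference RNA as a single control whose own spread is left out. Nothing says that the preps are separate cultures, so its p-values measure spread that may be technical. The fit was tested on simulated data. Tables and figures used Python 3.11.15, pandas 2.3.3 and matplotlib 3.10.9.

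Members and lists were chosen with earlier results of these data known. Named were the 30 members with the widest gap, 3 on each side of the threshold, the 15 locus-named genes with the widest gap, up to 2 a list and the 10 most alike in profile. Other centrings, normalizations, thresholds and fits, and leaving out each prep, were tried. WBcel235 served for gene order and span only, as the sources name no build for the array.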

Additional observations from a re-analysis of the deposited data

Results flagged for a closer look

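In these values 1 sample, prep 3 in each case, lay far from the other 3, with a gap to the nearest of them that took up more of the whole range over 4 preps than the 95% critical value of Dixon's test for 4 samples allows. The median over the 82 genes was such a case, with a gap of 0.881 of the range. Of all 82 members 34 were (41.5%), and of the 33 named by rule, which have mostly the widest gaps, 23 were. Only these 23 are listed here. Among them the largest shares of the range were 0.974 for C12D12.1, 0.960 for R09H10.5, 0.949 for ZK180.5, 0.938 for T23E7.2, 0.904 for R02F11.1, 0.904 for R74.2, 0.901 for F10D11.6 and 0.9 for F40E10.5. Next came 0.897 for R07E3.1, 0.893 for T19B10.2, 0.893 for F44E7.4, 0.891 for B0495.7, 0.890 for T16G1.9, 0.889 for F56D2.3, 0.885 for F30H5.3 and 0.874 for F54E2.1. The others were 0.873 for T17H7.7, 0.871 for R148.3, 0.861 for F41F3.3, 0.857 for B0280.7, 0.854 for F49E10.2, 0.848 for ZK180.6 and 0.842 for T18H9.11. Chance gives about 1 such case in 20, but all of these genes were chosen for a low prep 3, so this is a description, and nothing is read from the number of cases.

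Of the 15 locus-named genes with the widest gap, chosen by the same thresholds, 14 were such cases as well. The shares were 0.980 for sca-1, 0.980 for mthf-1, 0.943 for hrg-11.3, 0.929 for col-17, 0.923 for dpy-4, 0.886 for irg-7 and 0.863 for hrg-11.2. For the remaining genes they were 0.858 for bcf-1, 0.852 for dpy-5, 0.852 for abu-14, 0.845 for col-73, 0.845 for col-41, 0.838 for lep-5 and 0.835 for col-90.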

How the results depend on the processing

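The number of sequence-named genes low only in prep 3 stayed between 71 and 88 under other centrings and normalizations, against 82. Scale normalization kept 65 of the 82, run centring 69, quantile normalization 74, deposited values 77 and mean centring 79. A gap of 1.5 in place of 1.2 left 47 sequence-named and 235 locus-named genes, and a gap of 1 gave 117 and 572. Asking every probe to meet the rule left 79, and genes with 1 probe, a setting chosen after seeing the data, 78. Leaving out 1 of preps 1, 2 and 4 gave 91 to 139 genes, since fewer preps then have to lie above prep 3; the rule cannot be applied without prep 3. The median of the 82 in prep 3 lay between -0.74 and -0.58 over the other centrings, normalizations and probe summary. The number of members past the limma threshold (9) was 22 with month as a random block, where 3794 of 19941 features passed. With array weights it was 45, where 4218 of 19941 features passed. The cause was not tested for these 2 settings. When 1 prep was left out the number was 0 to 59. No paired analysis was possible because all samples form 1 group. The arrays give no signal over background here, so dim spots could not be set aside.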

Other observations

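Genes of protein production and export also had members with the low prep 3 value, in lists that were chosen after values were seen and carry no test. Of 22 genes of entry, glycosylation and folding in the endoplasmic reticulum, 8 were low only in prep 3, with a list median of -0.19 in prep 3 and 1.07, 0.82 and 1.00 in preps 1, 2 and 4. The chaperone gene hsp-3 was at -1.19 in prep 3, against 2.11, 1.59 and 2.1, and the oligosaccharyltransferase gene stt-3 at -1.73, against 1.05, 0.83 and 1.25. Of 29 aminoacyl-tRNA synthetase genes 7 were, of 20 translation initiation factor genes 5, of 18 vacuolar ATPase genes 5 and of 19 genes of the proteasome regulatory particle 4. The proteasome list had a median of -1.05 in prep 3 and 0.22, -0.23 and 0.33 in the others.

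Among 99 families of locus names with at least 15 measured genes, 59 had 0 genes low only in prep 3 and 27 were above the share of all locus-named genes. The 59 include families such as msp, many of whose genes lie under the rule's bound of -1 in preps 1, 2 and 4. The highest shares were those of the vha (4 of 17), dpy (5 of 22), egl (5 of 25) and hsp (4 of 21) names.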
